A study of Mus musculus with 4 samples.

Results

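The genes described here encode the components of mTORC1 and AMPK signalling, the pair of kinase systems through which a cell matches growth to nutrients and energy. The 36 members were chosen by name as subunits of mTOR complexes 1 and 2, the TSC complex with Rheb, Ragulator, the GATOR complexes, the sestrins and Slc38a9, AMPK with its upstream kinases, and the S6 kinases and 4E-binding proteins. All 36 had a value, out of 13677 genes measured. RNA was sequenced from the inguinal fat pad of mice, a white depot under the skin. The 2 groups were wildtype animals (WT, 2 libraries) and animals labelled as an adipose knockout of Flcn (FLCNKO, 2 libraries). Strain, age, sex, diet, housing temperature, the Cre driver and the deleted part of Flcn were not stated in the labels. No label ties a library to 1 animal or to a pool, and the p-values below therefore reflect library-to-library spread, which may be technical.

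mTORC1 is recruited to the lysosome by the Rag GTPases, which are anchored there by Ragulator and switched by GATOR1, GATOR2 and amino acid sensors. Rheb then activates the kinase, unless the TSC complex turns Rheb off, and active mTORC1 phosphorylates the S6 kinases and the 4E-binding proteins to raise translation. AMPK is activated by the kinase Stk11 when energy is short and by the calcium-dependent kinase Camkk2. Active AMPK opposes mTORC1 through the TSC complex and Raptor. Folliculin, the product of Flcn, acts on the Rag GTPases, and the series title places it in an alternate mTOR pathway that regulates the conversion of white fat towards a heat-producing state. Transcript levels do not report kinase activity, which was not measured here.

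The deposited values were taken to be on a log2 scale and had nearly the same distribution in the 4 libraries, with medians of 10.7636 to 10.7645. The sequencing depth behind them is unknown, and such equalized values hide any change common to most transcripts. Over all genes, limma called 134 genes higher and 84 lower in FLCNKO (adjusted p under 0.05, over all 13677 genes). Flcn itself overlapped between the groups, at 12.36 and 12.21 in WT and 12.35 and 12.12 in FLCNKO, a log2 fold change of -0.05 ± 0.13 (SE). This value is for the whole gene in a tissue that also holds cells other than adipocytes, and it does not check the labels. The white adipocyte markers, such as Adipoq and Plin1, were abundant in all 4 libraries. Their summed level was 21.53 to 21.54 in WT and 21.54 to 21.67 in FLCNKO (log2 of the summed linear values of 8 genes). Fabp4 and Lpl, at 19.80 to 20.57, made up most of it. Of the 8 genes 0 were called, and 2 had FLCNKO libraries below WT, where 25.4% of all genes did. These were Retn and Adipoq, with Adipoq at 18.31 and 18.17 in WT and 17.72 and 17.85 in FLCNKO.

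In FLCNKO the subunit genes of the TSC complex, several Ragulator genes and the core mTORC1 genes lay above WT by 1.24-fold to 1.57-fold, and the sestrin gene Sesn1 lay below WT. None of these differences passed the test over all genes. Of the 36 members 0 were called, where 1.59% of all genes were called (limma, adjusted p under 0.05), and the smallest adjusted p among them was 0.0681, for Deptor. At an unadjusted p under 0.05 the same fit held 12 members, or 33.3%, against 22.4% of all genes. Of these 12 members 11 were higher and 1 was lower, where the shares of all genes were 12.1% and 10.3%. The groups did not overlap in 24 members, or 66.7%, against 54.6% of all genes. In 19 of them both FLCNKO libraries lay above both WT libraries, against 29.2% of all genes, and in 5 both lay below, against 25.4%. By mean, 26 members (72.2%) were higher in FLCNKO, against 50.4% of all genes. The median log2 fold change was 0.17 over the members and 0.0046 over all genes.

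The count at an unadjusted p under 0.05 moved with the libraries used, as did the share of all genes. It was 3 members (8.33%, against 10.2% of all genes) without WT replicate 1 and 6 members (16.7%, against 13.2%) without WT replicate 2. It was 12 (33.3%, against 24% of all genes) without FLCNKO replicate 1 and 14 (38.9%, against 25.3%) without FLCNKO replicate 2. Deptor and Lamtor1 were the only members under 0.05 in the fit to all 4 libraries and in all 10 alternatives that were run. In the members, the median absolute log2 difference between replicates was 0.08 within WT and 0.14 within FLCNKO, against 0.15 and 0.25 over all genes. All 36 members had a mean of at least 8, whereas all genes include lower ones, so these comparisons are not matched for expression level. With genes of a mean under 8 left out, 33.3% of the members were under an unadjusted p of 0.05, against 25% of the genes kept.

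**Figure D1:**
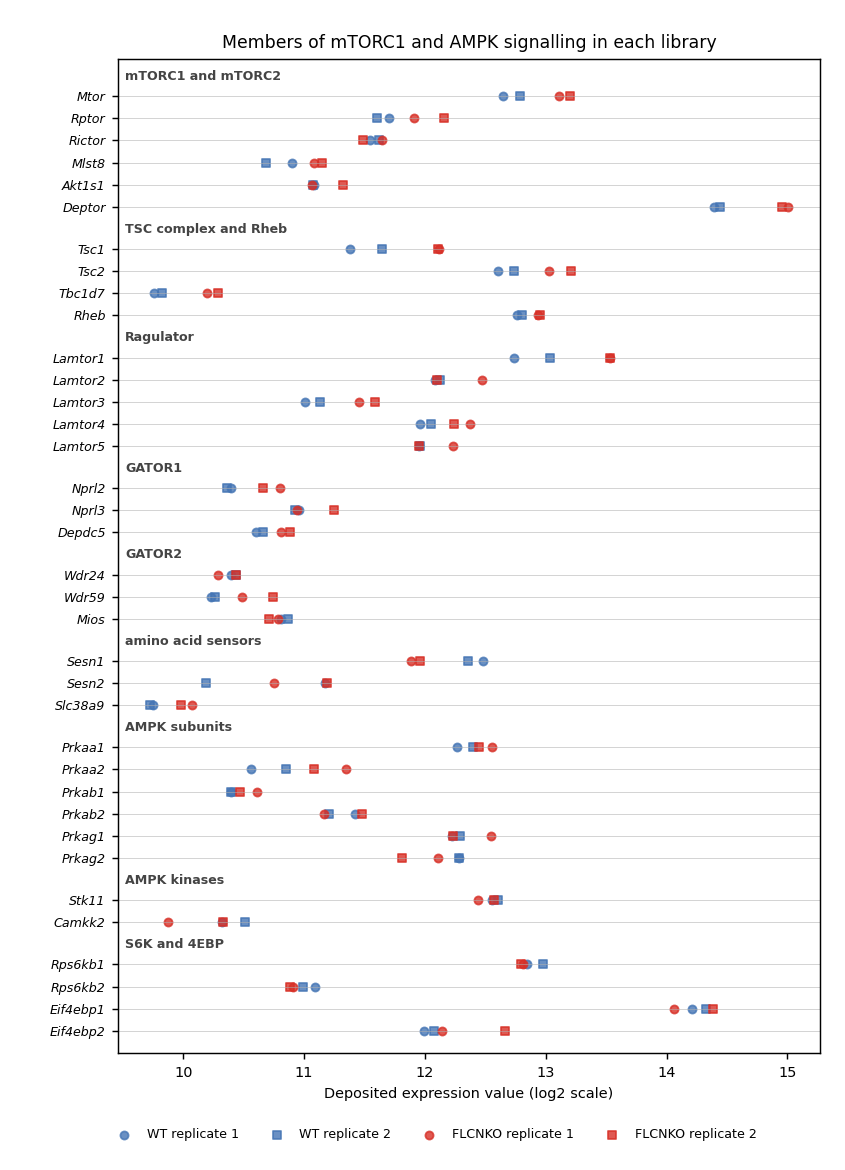
Deposited log2 expression value (horizontal axis) of each of the 36 members in each of the 4 libraries, grouped by complex; blue marks WT, red marks FLCNKO, circles are replicate 1 and squares replicate 2. Both red marks lie to the right of both blue marks in 19 members, among them all 4 genes of the TSC group, and to the left in 5.

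In the mTOR complexes, 5 of 6 genes had a higher mean in FLCNKO and 0 passed. The groups did not overlap in 4 of them (66.7%, against 54.6% of all genes). Mtor, which encodes the kinase itself, was at 12.65 and 12.79 in WT and at 13.11 and 13.20 in FLCNKO on the log2 scale. Both FLCNKO libraries were thus above both WT libraries, by a log2 fold change of 0.43 ± 0.11 (SE, n = 2 per group), or 1.35-fold with a 95% interval from 1.11 to 1.65 (limma adjusted p = 0.11). Rptor, which encodes Raptor, the subunit that brings substrates to mTORC1, was at 11.70 and 11.61 in WT and 11.91 and 12.16 in FLCNKO. Its groups did not overlap either (0.38 ± 0.13; adjusted p = 0.188), and FLCNKO replicate 2 lay farthest from WT. Deptor, which encodes an inhibitor bound to mTOR in both complexes, was at 14.39 and 14.44 in WT and 15.00 and 14.95 in FLCNKO. The replicates of Deptor were close in both groups, and the difference was 0.56 ± 0.10, a 1.48-fold higher level (adjusted p = 0.0681).

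Mlst8, a subunit gene shared by both complexes, had groups that did not overlap, with a difference of 0.32 ± 0.13 (SE; limma adjusted p = 0.245). It shares 22.5% of its exon bases with Bricd5 on the opposite strand, and whether the counting used strand is not given in the sources used here. Rictor, which defines mTORC2, was at 11.55 and 11.62 in WT and 11.64 and 11.49 in FLCNKO. The groups of Rictor overlapped, and the 95% interval of its log2 fold change ran from -0.32 to 0.29. Akt1s1, the gene of the mTORC1 inhibitor PRAS40, overlapped as well, with an interval from -0.24 to 0.47.

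The gap between the mTORC1 scaffold and the mTORC2 scaffold can be read within each library, since gene length cancels when the same pair is compared between groups. Rptor minus Rictor was 0.15 and -0.01 in WT and 0.26 and 0.67 in FLCNKO on the log2 scale. The 4 values did not overlap between groups, with a shift of 0.40 (exact two-sided permutation p = 0.333 for 2 libraries against 2). That p is the smallest that this design allows, so no pair of members could pass, and after adjustment over the 8 pairs compared it was 0.533. The shift was 0.20 without FLCNKO replicate 2 and 0.60 without FLCNKO replicate 1.

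In the TSC group, all 4 genes had FLCNKO libraries above the WT libraries, against 29.2% of all genes, and 0 passed. The group's median log2 fold change was 0.45, the highest of the 9 groups of members, and it lay between 0.38 and 0.52 when any 1 library was left out. Tsc1, which encodes hamartin, the stabilizing subunit, was at 11.38 and 11.64 in WT and 12.11 and 12.10 in FLCNKO. The WT replicates differed more than the FLCNKO replicates, and the difference between groups was 0.60 ± 0.13 (SE, n = 2 per group; limma adjusted p = 0.0892). Tsc2, which encodes tuberin, the subunit that turns Rheb off, was at 12.60 and 12.74 in WT and 13.03 and 13.21 in FLCNKO, a difference of 0.45 ± 0.12 (adjusted p = 0.12). Pkd1, whose exons overlap 7.2% of the exon bases of Tsc2 on the opposite strand, differed by 0.04 ± 0.21. It was at 13.46 and 13.42 in WT and 13.19 and 13.77 in FLCNKO, and its part in the difference of Tsc2 was not tested. Tbc1d7, the small stabilizing subunit, was at 9.75 and 9.82 in WT and 10.20 and 10.28 in FLCNKO, a difference of 0.45 ± 0.14 (adjusted p = 0.149).

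The 3 subunits of the TSC complex therefore lay 1.51-fold, 1.36-fold and 1.37-fold above WT. Rheb, the GTPase they inhibit, was at 12.77 and 12.81 in WT and 12.93 and 12.95 in FLCNKO. The groups of Rheb did not overlap, but the difference was smaller, 0.16 ± 0.10 (SE), with an interval from -0.10 to 0.41 (limma adjusted p = 0.42). Within each library Tsc1 minus Tsc2 overlapped between the groups, with a shift of 0.15.

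In Ragulator, the scaffold that holds the Rag GTPases on the lysosome, all 5 genes had a higher mean in FLCNKO and 0 passed. The groups did not overlap in 3 of them (60%, against 54.6% of all genes). Lamtor1, which encodes the lipid-anchored subunit that wraps the others, was at 12.74 and 13.03 in WT and 13.54 and 13.53 in FLCNKO. Lamtor1 had the largest difference of all 36 members, 0.65 ± 0.14 (SE, n = 2 per group), or 1.57-fold with a 95% interval from 1.23 to 1.99 (limma adjusted p = 0.0824). Lamtor3, which encodes the subunit also known as MP1, was at 11.00 and 11.13 in WT and 11.46 and 11.59 in FLCNKO. Both FLCNKO libraries of Lamtor3 were above WT, by 0.46 ± 0.12 (adjusted p = 0.119). Lamtor4, a small structural subunit, was at 11.96 and 12.05 in WT and 12.38 and 12.24 in FLCNKO, a difference of 0.30 ± 0.11 (adjusted p = 0.208).

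The other Ragulator genes overlapped between groups, and only FLCNKO replicate 1 was high. Lamtor2 was at 12.09 and 12.12 in WT and 12.47 and 12.10 in FLCNKO. Lamtor5 was at 11.95 and 11.96 in WT and 12.23 and 11.95 in FLCNKO. Without FLCNKO replicate 1 the log2 fold changes of Lamtor2 and Lamtor5 were -0.0028 and -0.0066. Lamtor1, Lamtor3 and Lamtor5 are uncertain in part, since 12.3%, 6.66% and 18.6% of their stretches of 31 bases occur in transcripts of other genes. Lamtor1 also shares 18.7% of its exon bases with Lrrc51 on the opposite strand, which differed by -0.11 ± 0.21 (SE). The part of Lrrc51 in the difference of Lamtor1 was not tested.

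The promoter of Lamtor1 is shown because this gene differed most among the members and because the MiT/TFE factors, which folliculin keeps out of the nucleus, bind sites built on CACGTG. The 250 bases before its RefSeq start lie at chr7:101905587-101905836 (GRCm38.p6, plus strand), where GENCODE M21 places no exon. The capitals mark CACGTG, which begins 68 bases before the start.

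Lamtor1: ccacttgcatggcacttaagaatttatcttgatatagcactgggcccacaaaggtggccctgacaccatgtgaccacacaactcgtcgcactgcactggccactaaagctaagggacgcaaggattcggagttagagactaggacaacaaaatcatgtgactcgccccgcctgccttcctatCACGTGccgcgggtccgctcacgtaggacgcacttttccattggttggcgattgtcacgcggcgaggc

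Of the 36 members, 31 had a RefSeq promoter of 300 bases (250 before the start and 50 after). The letters CACGTG, which read the same on both strands, were in the promoters of 4 of these 31 genes, or 12.9%: Lamtor1, Lamtor4, Rheb and Tbc1d7. The share was 8.09% over all 27025 genes with a promoter in that table and 11.4% over the 10547 of them with an expression value, so the members' share was close to that of measured genes. For comparison with Lamtor1, stretches of 30 bases follow from Lamtor4 (chr5:138255358-138255387, plus strand, with CACGTG at 120 and 104 bases before the start), Tbc1d7 (chr13:43171537-43171566, minus strand, at 53 bases) and Rragc (chr4:123917309-123917338, plus strand, at 112 bases), a Rag GTPase gene that passed the test. These stretches are examples, and that of Rheb is not shown. Among the other pathway genes, CACGTG was in the promoters of 11 of 59, or 18.6%. Of these, Eif4e, Fnip1, Pfkfb3, Rragc and Telo2 had a higher mean in FLCNKO. Eef2, Eef2k, Eif4g1, Irs1, Irs2 and Pfkfb2 had a lower mean. A match of letters is a description of the sequence and does not show that a factor binds there.

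Lamtor4: ttaaCACGTGaacagcttttCACGTGtaaa

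Tbc1d7: ccggttaacatcCACGTGtgggtgggactc

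Rragc: ggtgattccgggCACGTGatagtaccactt

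In GATOR1, the complex that switches off the Rag GTPases when amino acids are short, all 3 genes had a higher mean in FLCNKO. Of these 0 passed, and 2 had groups that did not overlap (66.7%, against 54.6% of all genes). Nprl2, which encodes a catalytic subunit, was at 10.40 and 10.36 in WT and 10.80 and 10.66 in FLCNKO. Its difference was 0.35 ± 0.13 (SE, n = 2 per group; limma adjusted p = 0.206). Depdc5, which binds the Rag GTPases, differed by 0.22 ± 0.12 and did not overlap, whereas Nprl3 overlapped, and only FLCNKO replicate 2 was high. Nprl3 shares 17.7% of its exon bases with Mpg on the opposite strand. In GATOR2, which opposes GATOR1, the 3 genes went different ways. Wdr59 was at 10.23 and 10.27 in WT and 10.49 and 10.74 in FLCNKO, a difference of 0.37 ± 0.15 (adjusted p = 0.23), the smallest p of the GATOR2 members. Of its stretches of 31 bases, 5.46% occur in transcripts of other genes. Mios was at 10.81 and 10.87 in WT and 10.79 and 10.71 in FLCNKO, and Wdr24 overlapped, with log2 fold changes of -0.09 and -0.05.

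Among the amino acid sensors, Sesn1 was the 1 member with a lower level at an unadjusted p under 0.05. Sestrins bind GATOR2 and hold mTORC1 back, and they also respond to stress. Sesn1 was at 12.48 and 12.36 in WT and 11.88 and 11.96 in FLCNKO. Both FLCNKO libraries were below both WT libraries, with a log2 fold change of -0.50 ± 0.11 (SE, n = 2 per group), or 0.709 of the WT level with a 95% interval from 0.583 to 0.863 (limma adjusted p = 0.0899). Sesn2, which encodes the leucine sensor and is induced by stress, was at 11.18 and 10.19 in WT and 10.75 and 11.19 in FLCNKO. The WT replicates of Sesn2 lay apart by more than the group means did, its interval ran from -0.63 to 1.20, and it was the most variable member. Slc38a9, the arginine sensor of the lysosomal membrane, was at 9.75 and 9.73 in WT and 10.07 and 9.98 in FLCNKO, a difference of 0.29 ± 0.14 (adjusted p = 0.299). Sesn1 minus Sesn2 did not overlap between the groups (1.30 and 2.17 in WT, 1.13 and 0.77 in FLCNKO), but the shift ran from -0.35 without WT replicate 2 to -1.22 without WT replicate 1.

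**Figure D2:**
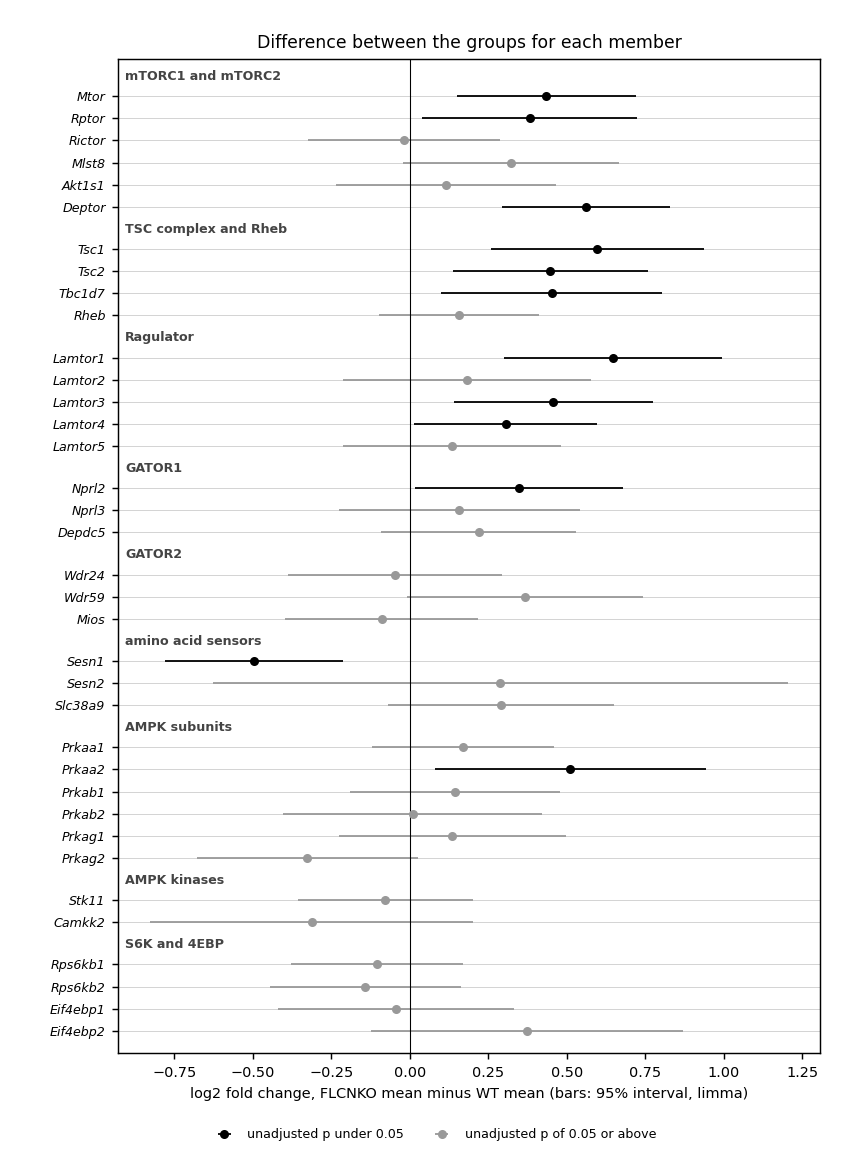
Log2 fold change of each member (horizontal axis, FLCNKO mean minus WT mean), with bars for the 95% interval of limma and black marks for an unadjusted p under 0.05. The black marks are 11 members to the right of 0, mostly in the mTOR, TSC and Ragulator groups, and Sesn1 to the left.

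AMPK is a trimer of a catalytic alpha, a scaffolding beta and a nucleotide-binding gamma subunit, each encoded by several genes. Of the 6 subunit genes measured here, 3 had FLCNKO libraries above WT, 1 had them below, 2 overlapped, and 0 passed. The share without overlap was 66.7%, against 54.6% of all genes. Prkaa1, which encodes a catalytic subunit, was at 12.27 and 12.39 in WT and 12.55 and 12.44 in FLCNKO. The groups of Prkaa1 were separated by little, with a log2 fold change of 0.17 ± 0.11 (SE, n = 2 per group) whose interval ran from -0.12 to 0.46 (limma adjusted p = 0.447). Prkaa2, which encodes the other catalytic subunit, abundant in skeletal muscle, was at 10.56 and 10.85 in WT and 11.35 and 11.08 in FLCNKO. Its difference of 0.51 ± 0.17 (adjusted p = 0.171) was the largest of the AMPK subunits. Prkaa2 minus Prkaa1 was -1.71 and -1.54 in WT and -1.21 and -1.36 in FLCNKO, a shift of 0.34 without overlap (exact permutation p = 0.333, the smallest possible).

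Skeletal muscle RNA differed strongly between the libraries. The summed level of 15 muscle markers was 17.49 and 14.44 in WT and 16.38 and 13.46 in FLCNKO (log2 of the summed linear values). All 15 had a value and 0 were called. In FLCNKO replicate 2 the sum came mostly from Acta1, at 13.32 there and at 12.21 in WT replicate 2. The other markers in FLCNKO replicate 2 ran from 2.37 for Myoz1, the lowest value of that library, to 8.25 for Pygm. Prkaa2 was at 10.56 and 10.85 in WT and 11.35 and 11.08 in FLCNKO. Within WT it was lower in replicate 1, the library with more muscle RNA. Within FLCNKO it was higher in replicate 1, again the library with more muscle RNA. The part of muscle RNA in the difference of Prkaa2 was not tested.

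Of the regulatory subunit genes, 0 reached an unadjusted p under 0.05. Prkag2, which encodes a gamma subunit, was at 12.28 and 12.29 in WT and 12.11 and 11.81 in FLCNKO, with a log2 fold change of -0.33 ± 0.14 (SE; limma adjusted p = 0.249). Prkag1, the more widely expressed gamma gene, was at 12.22 and 12.29 in WT and 12.54 and 12.24 in FLCNKO and overlapped. Prkag2 minus Prkag1 was 0.06 and -0.0031 in WT and -0.44 and -0.42 in FLCNKO. This shift of -0.46 varied least of the 8 pairs when a library was left out, between -0.43 and -0.49 (exact permutation p = 0.333, the smallest possible). Prkag1 and Prkag2 share 43.7% and 14.5% of their exon bases with genes on the opposite strand, and the part of those genes in the shift was not tested. For the beta subunits, Prkab1 differed by 0.14 and Prkab2 by 0.0089, with intervals from -0.19 to 0.48 and from -0.40 to 0.42.

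Of the kinases that activate AMPK, neither gene separated the groups. Camkk2, the calcium-dependent one, was at 10.32 and 10.51 in WT and 9.87 and 10.33 in FLCNKO. Its groups overlapped, with a log2 fold change of -0.31 ± 0.20 (SE; limma adjusted p = 0.425), which was -0.08 without FLCNKO replicate 1. Stk11, which encodes LKB1, was at 12.56 and 12.61 in WT and 12.44 and 12.57 in FLCNKO, and its interval ran from -0.36 to 0.20. It shares 5.07% of its exon bases with Cbarp on the opposite strand.

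**Figure D3:**
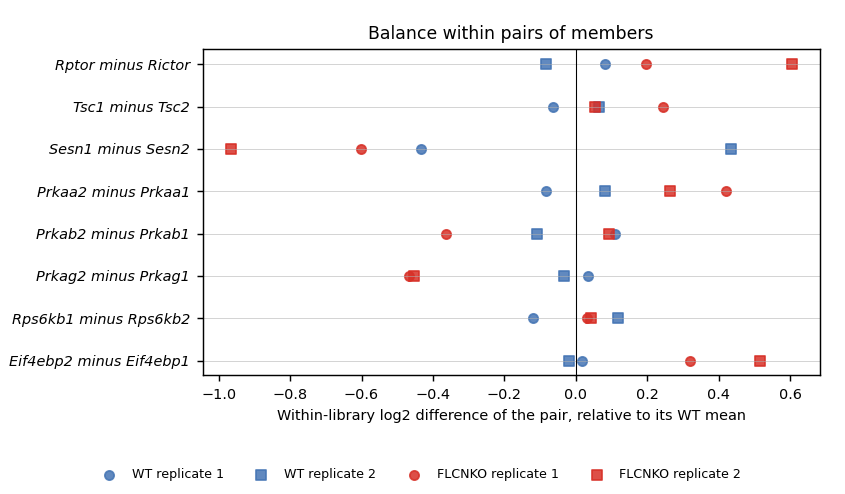
Within-library log2 difference of 8 pairs of members (horizontal axis, relative to the mean of the WT libraries for that pair); blue marks WT, red marks FLCNKO, circles are replicate 1 and squares replicate 2. The groups do not overlap for Rptor minus Rictor, Sesn1 minus Sesn2, Prkaa2 minus Prkaa1, Prkag2 minus Prkag1 and Eif4ebp2 minus Eif4ebp1.

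Among the genes of mTORC1 substrates, 2 of 4 had FLCNKO libraries below WT, 1 had them above and 1 overlapped. The share without overlap was 75%, against 54.6% of all genes. An unadjusted p under 0.05 was reached by 0 of these genes, against 22.4% of all genes. The median log2 fold change of the S6 kinases and 4E-binding proteins was -0.07. Rps6kb1, which encodes the main S6 kinase, was at 12.85 and 12.98 in WT and 12.81 and 12.80 in FLCNKO. Rps6kb2 was at 11.09 and 10.99 in WT and 10.91 and 10.88 in FLCNKO. Both genes had FLCNKO libraries below WT by small amounts, -0.11 ± 0.11 and -0.14 ± 0.12 (SE), with intervals from -0.38 to 0.17 and from -0.45 to 0.16. Eif4ebp1, a translation repressor abundant in fat, was at 14.21 and 14.33 in WT and 14.06 and 14.39 in FLCNKO and overlapped. Of its stretches of 31 bases, 6.6% occur in transcripts of other genes. Rps6kb2 shares 23.7% of its exon bases with Coro1b, at 14.08 to 14.34 in the 4 libraries, and Ptprcap on the opposite strand. The part of those genes in its values was not tested.

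Eif4ebp2, the other 4E-binding protein gene measured, was at 11.99 and 12.07 in WT and 12.14 and 12.67 in FLCNKO. It had the smallest p of the S6 kinase and 4E-binding protein genes, with a difference of 0.37 ± 0.19 (SE; limma adjusted p = 0.329). The distance from WT came mostly from FLCNKO replicate 2, and without that library the log2 fold change was 0.11. Eif4ebp2 minus Eif4ebp1 was -2.22 and -2.25 in WT and -1.92 and -1.72 in FLCNKO, a shift of 0.42 without overlap.

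The size of the difference in the 12 members under an unadjusted p of 0.05 moved when 1 library was left out, and no adjusted p of a member was under 0.05 in any of those fits. Their direction could not turn, since the groups of all 12 do not overlap. Deptor moved least, from 0.54 to 0.59. Rptor ranged from 0.26 without FLCNKO replicate 2 to 0.51 without FLCNKO replicate 1. Lamtor1 ranged from 0.50 without WT replicate 1 to 0.80 without WT replicate 2, and from 0.64 to 0.65 without either FLCNKO library.

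**Figure D4:**
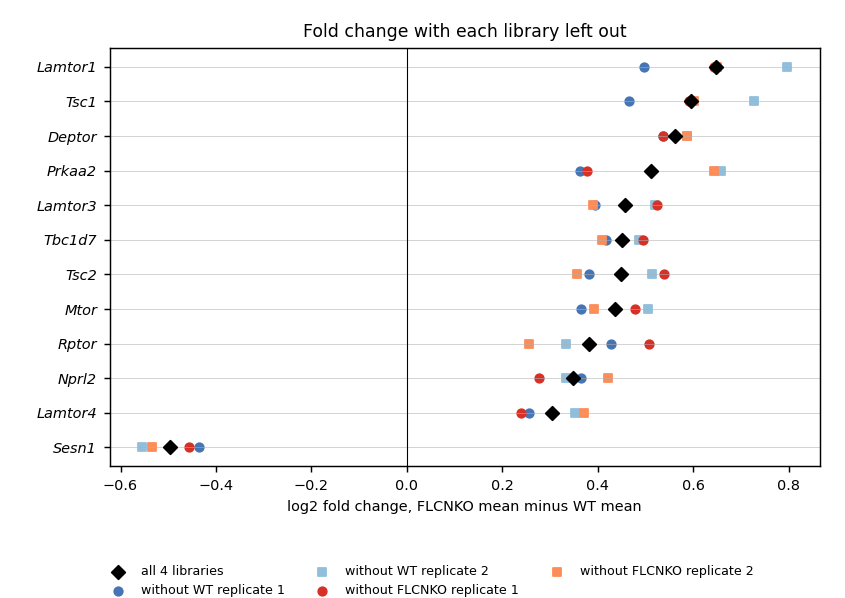
Log2 fold change (horizontal axis, FLCNKO mean minus WT mean) of the 12 members with an unadjusted p under 0.05, with all 4 libraries (black diamonds) and with each library left out (coloured marks). The marks of Deptor lie closest together, from 0.54 to 0.59, and those of Lamtor1 spread from 0.50 to 0.80; no mark could cross 0, since the groups of these genes do not overlap.

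The rest of the pathway was described by 73 other genes in 6 lists, of which 69 had a matched value. Of the 69 genes 2 rose and 0 fell over all genes (limma, adjusted p under 0.05), against 0.98% and 0.614% of all genes. Rragc, which encodes a Rag GTPase, was at 13.40 and 13.47 in WT and 14.35 and 14.44 in FLCNKO, and it rose 1.94-fold (adjusted p = 0.0404). It shares 7.9% of its exon bases with 4930535I16Rik on the opposite strand. Acacb, which encodes the acetyl-CoA carboxylase of the mitochondrial surface and an AMPK substrate, was at 15.05 and 15.38 in WT and 16.69 and 16.74 in FLCNKO, and it rose 2.83-fold (adjusted p = 0.0383). Neither was called when any 1 library was left out or without the variance trend.

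At an unadjusted p under 0.05, 4 of 15 nutrient sensing genes were higher and 1 was lower (33.3%, against 22.4% of all genes). The median log2 fold change of this list was 0.18. Rragd, another Rag GTPase gene, had the largest difference, 3.95 ± 0.72 (SE, n = 2 per group; limma adjusted p = 0.0658). It was low and variable in WT, at 7.33 and 5.48, and at 10.94 and 9.77 in FLCNKO. Fnip1 and Fnip2, which encode the partners of folliculin, differed by 0.79 and 0.56 (adjusted p = 0.103 and 0.105). Castor1, a cytosolic arginine sensor and the 1 lower gene, named here after its values were seen, was at 9.96 and 10.04 in WT and 9.30 and 9.50 in FLCNKO (-0.60 ± 0.16; adjusted p = 0.115).

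The insulin and growth factor input had the lowest median of the 6 lists, -0.18, with 11 of 14 genes lower by mean and 0 called. Irs1, the insulin receptor substrate gene, was at 12.76 and 13.02 in WT and 12.55 and 11.97 in FLCNKO (-0.63 ± 0.22, SE; limma adjusted p = 0.191). Pik3r1, the regulatory subunit gene of PI3-kinase, was at 14.95 and 15.30 in WT and 14.73 and 14.48 in FLCNKO (-0.52 ± 0.17; adjusted p = 0.164). Both had FLCNKO libraries below WT, and Pik3ca, which encodes a catalytic subunit, had them above WT by 0.22 ± 0.10. Irs1 shares 30.9% of its exon bases with Gm9747 on the opposite strand.

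Among further partners of the mTOR complexes, 0 of 7 genes were called. The smallest p was that of Mapkap1, a subunit gene of mTORC2, at 0.34 ± 0.11 (SE; limma adjusted p = 0.173). Tti1, a chaperone gene for mTOR, differed by 0.44 ± 0.20, and by 0.19 without FLCNKO replicate 2. Prr5, another mTORC2 gene, differed by -0.76 ± 0.42, where FLCNKO replicate 1 was low. All 8 other AMPK pathway genes had a higher mean in FLCNKO, with a median of 0.17 and 0 called. Stradb, a pseudokinase gene related to Strada, the activator of LKB1, was at 11.12 and 11.42 in WT and 12.14 and 12.15 in FLCNKO (0.87 ± 0.14; adjusted p = 0.0584). Stradb was called in 2 of the 10 alternatives, one of them robust variance moderation (adjusted p = 0.0489). Strada itself differed by 0.20 ± 0.13 and Ppp2ca, a phosphatase catalytic subunit gene, by 0.39 ± 0.11. Ppp2ca shares 41.3% of its exon bases with genes on the opposite strand. Of the stretches of 31 bases of Strada, 5.83% occur in transcripts of other genes.

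Of 15 genes for mTORC1 substrates and outputs, 0 were called. At an unadjusted p under 0.05, 1 was higher and 3 were lower (26.7%, against 22.4% of all genes). Cad, the enzyme gene of pyrimidine synthesis that S6 kinase acts on, was at 10.73 in both WT libraries and at 11.41 and 11.29 in FLCNKO (0.62 ± 0.12, SE; limma adjusted p = 0.07). The translation factor genes Eef2 and Eif4b had log2 fold changes of -0.45 ± 0.15 and -0.40 ± 0.14 (adjusted p = 0.165 and 0.186). Grb10, the remaining lower gene, named here after its values were seen, differed by -0.50 ± 0.18 (adjusted p = 0.191). Eef2 shares 21.2% of its stretches of 31 bases with other genes, Eif4b shares 5.29% and Rps6, the target of S6 kinase, shares 45%, so their values are uncertain. Of the 10 AMPK substrate genes 2 were higher at an unadjusted p under 0.05, Acacb and Acaca (20%, against 22.4% of all genes). Acaca did not pass (1.07 ± 0.38, limma adjusted p = 0.188). Leaving out WT replicate 1 gave Acaca a log2 fold change of 0.50, leaving out WT replicate 2 gave 1.64, and 33.4% of its stretches of 31 bases occur in other genes, so its value is uncertain as well. Mff, a mitochondrial fission gene, differed by 0.39 ± 0.15 and Crtc2, a coactivator gene of cAMP signalling, by -0.23 ± 0.12.

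Marker RNA of several cell types differed between the groups. In bulk tissue, fewer cells of a type and less RNA per cell cannot be told apart. All 10 fibroblast markers had FLCNKO libraries below WT, against 25.4% of all genes, and 3 were called lower, against 0.614% of all genes. Their summed level was 20.09 to 20.22 in WT and 19.12 to 19.19 in FLCNKO. All 10 macrophage markers likewise lay below WT, with 2 called lower, beside the same shares of all genes. Their summed level was 17.66 to 17.88 in WT and 16.76 to 17.03 in FLCNKO.

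Brown and beige markers went the other way: 5 of 8 had FLCNKO libraries above WT, against 29.2% of all genes. Cox8b and Ppargc1a, 2 of the 8, were called higher, against 0.98% of all genes. The summed level was 13.59 to 14.25 in WT and 16.26 to 17.58 in FLCNKO. Ucp1 overlapped between the groups, at 10.6 and 7.4 in WT and 13.8 and 10.1 in FLCNKO (limma adjusted p = 0.336). Dio2 and Prdm16 overlapped as well, with log2 fold changes of -0.08 and 0.02. The lymphocyte markers had a summed level of 12.86 to 13.98 in WT and 11.93 to 12.91 in FLCNKO. Endothelial sums overlapped, at 15.22 to 15.34 in WT and 15.11 to 15.50 in FLCNKO. Of 8 mammary epithelial markers 4 had a value, with sums of 8.91 to 9.35 in WT and 8.23 to 8.83 in FLCNKO. The part of fibroblast, macrophage and beige cells in the differences of the members was not tested.

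**Figure D5:**
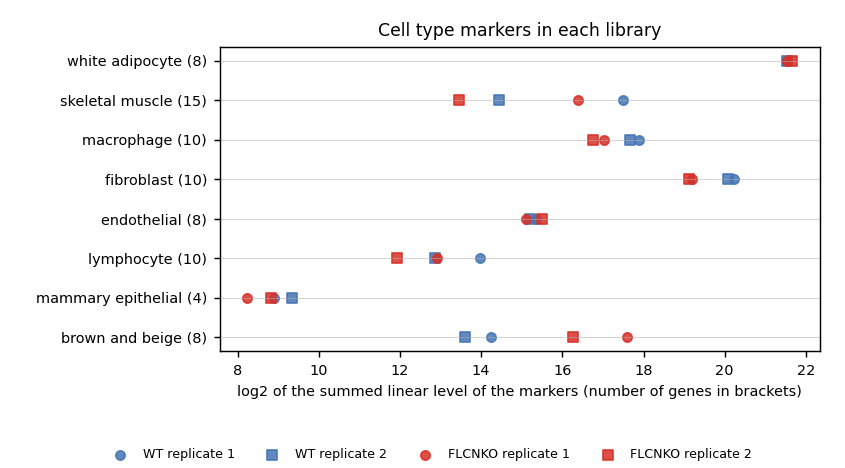
Log2 of the summed linear level of each marker list (horizontal axis, number of genes in brackets) in each library; blue marks WT, red marks FLCNKO, circles are replicate 1 and squares replicate 2. Fibroblast and macrophage levels are lower and brown and beige levels higher in both FLCNKO libraries, and skeletal muscle varies most between libraries.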

How the data were processed

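Each library came as a separate table of log2 expression values, deposited by the authors per Ensembl gene. Per the submitters' processing notes, the names STAR, limma and mm9 are listed, with no version or role. For the counting program, annotation and strand setting, the labels give nothing. GENCODE symbols could be assigned to 13592 genes and not to 85.

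Groups and replicate numbers came from the library titles. The FLCNKO and WT libraries were tested two-sided with limma 3.58.1 in R 4.3.3, with group as the only term and a trend of variance on expression (2 residual and 3.09 prior degrees of freedom). Benjamini-Hochberg adjustment ran over all 13677 genes. The members, lists, pairs and tests were chosen with earlier results of these data known. Library values are given for members with an unadjusted p under 0.05, for the member with the smallest p in other groups, for Mtor, Prkaa1 and Prkaa2, and for further members in context. From each other list, called genes and up to 3 more with the smallest p are named, with Flcn, Rragc and Rragd. Castor1 and Grb10 were named in addition.

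The fit was tested on simulated data. Alternatives were leaving out genes with a mean under 8, repeated quantile normalization, median centring, no trend, robust moderation, a replicate block and leaving out each library. Shared stretches of 31 bases and exon overlaps came from GENCODE M21, and promoters from RefSeq (GRCm38.p6). These sequences are of another build than mm9, and only promoter coordinates are given. Pairs of members were tested by exact two-sided permutation over every split of the libraries into groups of 2, with adjustment over the 8 pairs in scipy 1.17.1.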

Additional observations from a re-analysis of the deposited data

How the results depend on the processing

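In all 10 alternatives 0 of the 36 members passed an adjusted p of 0.05, and the smallest adjusted p of a member ranged from 0.0596 to 0.459. The number of all genes called, 218, was 0 without the variance trend (2702 at an unadjusted p under 0.05), 344 with robust moderation and 842 with the replicate block. It was 0 without any 1 library. The 2 called genes among the other pathway genes were 0 without the trend and 0 without any 1 library. They were 4 with the replicate block (Acacb, Rragc, Rragd and Stradb), where the adjusted p was 0.0184 for Rragd and 0.0375 for Stradb. With the block as a term, 12 members were again under an unadjusted p of 0.05, with Wdr59 in and Lamtor4 out, against 26.3% of all genes. The replicate numbers are shared by the groups, but no label says what they pair. The deviations from the group means correlated at 0.363 across genes between libraries of the same number. The count of 12 members under an unadjusted p of 0.05 ranged from 3 to 14 with 1 library left out and was 8 without the trend. The members' median log2 fold change ranged from 0.17 to 0.24 with 1 library left out. A fit with 1 library in a group assumes that the lone library varies like the other group.

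The direction turned with 1 library left out in 9 members and in Flcn, all with overlapping groups. Their ranges of log2 fold change were -0.012 to 0.24 for Akt1s1, -0.21 to 0.12 for Eif4ebp1, -0.0028 to 0.37 for Lamtor2, -0.0066 to 0.28 for Lamtor5 and -0.15 to 0.17 for Prkab2. They were -0.019 to 0.29 for Prkag1, -0.10 to 0.059 for Rictor, -0.21 to 0.78 for Sesn2 and -0.12 to 0.028 for Wdr24, and -0.17 to 0.063 for Flcn. The cause was not tested. The depth is unknown, so no counting error can be given.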
